A study of Mus musculus with 6 samples.

Results

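The phase II transferases examined here are the genes of 3 enzyme families, the soluble glutathione S-transferases (GST), the UDP-glycosyltransferases (UGT) and the cytosolic sulfotransferases (SULT). Members were taken by symbol: every row named Gst with a class letter a, k, m, o, p, t or z and a digit, Ugt with a digit, or Sult with a digit, pseudogenes left out. This gave 64 of the 30236 genes listed, 22 GST, 21 UGT and 21 SULT genes. RNA was sequenced from 3 WT and 3 Top1mt-KO liver tumors of male C57BL/6 mice, littermates from heterozygous breeding in which the knockout is present in all cells. Top1mt encodes the mitochondrial type IB topoisomerase. Mice of both genotypes were given diethylnitrosamine, a liver carcinogen, on day 14 after birth and carbon tetrachloride, which injures the liver, 2 times a week for 14 weeks from 8 weeks of age. The tumors were taken at 22 weeks, and no untreated or tumor-free liver is among the 6 libraries. Values are the authors' log2 expression values, already normalized between libraries, in which weakly expressed genes appear drawn toward their mean, so differences of such genes are understated. Read counts cannot be recovered from these values and the depth behind them is unknown. A log2 difference below is always KO minus WT.

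Conjugation makes lipophilic compounds easier to excrete. GST enzymes join glutathione to electrophiles such as reactive carcinogen metabolites and products of lipid peroxidation, UGT enzymes transfer a sugar, mostly glucuronic acid from UDP-glucuronic acid, to bilirubin, steroids, bile acids and drugs, and SULT enzymes transfer a sulfonate group from PAPS to phenols, steroids and bile acids. Hepatocytes are their main site in the body, and many members are inducible through the transcription factor NRF2 or through the receptors CAR, PXR and AHR. Several differ between male and female mouse liver.

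The targeted gene served to check the labels. For Top1mt the log2 value was 7.71, 5.99 and 8.01 in the WT tumors in order of replicate number, and 5.58, 6.41 and 6.32 in the KO tumors. The library labelled WT replicate 2 went against its label, below KO replicates 2 and 3, and the directions given here all rest on the deposited labels. KO replicate 1 stood apart in another way, as Gm42418, a gene that overlaps a ribosomal RNA repeat, made up 17.7% of its summed linear values and at most 0.387% in the other libraries. Hepatocyte RNA was abundant in all 6 libraries, with albumin (Alb) at 20.3 to 21.1. In bulk tumor RNA, fewer cells of a type and less RNA per cell cannot be told apart.

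Of the 64 members, 59 lay above the lowest 25% of genes by mean level and were tested with limma among 22677 genes. Not tested were Gstt4, Sult1c1, Sult2a3, Sult3a2 and Sult6b2, whose values all lay between -2.23 and -0.61, near the lower end of the table. No member differed between the genotypes at an adjusted p under 0.05 (0 of 59, against 0 of 22677 genes, 0%), and the smallest adjusted p of a member was 0.938, for both Gstp3 and Sult1c2. At an unadjusted limma p under 0.05 there were 8 members (13.6%), against 4.34% of all genes tested. Of these, 2 were higher in KO (1.79% of all genes) and 6 were lower (2.56% of all genes). The genotypes did not overlap in 5 members (8.47%), which is close to the 8.28% of all genes tested. Among those, Gstp3 and Sult1c2 were higher in KO (3.95% of all genes were), and Gstt2, Gsta4 and Ugt8a were lower (4.33% of all genes were). The mean was lower in KO for 45 of the 59 members (76.3%, against 52.3% of all genes tested). Members are not independent of each other. The 9 Ugt1a genes share 50.3% to 60.6% of their exon bases, and some paralogs are up to 98.4% identical in coding sequence.

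**Figure D1:**
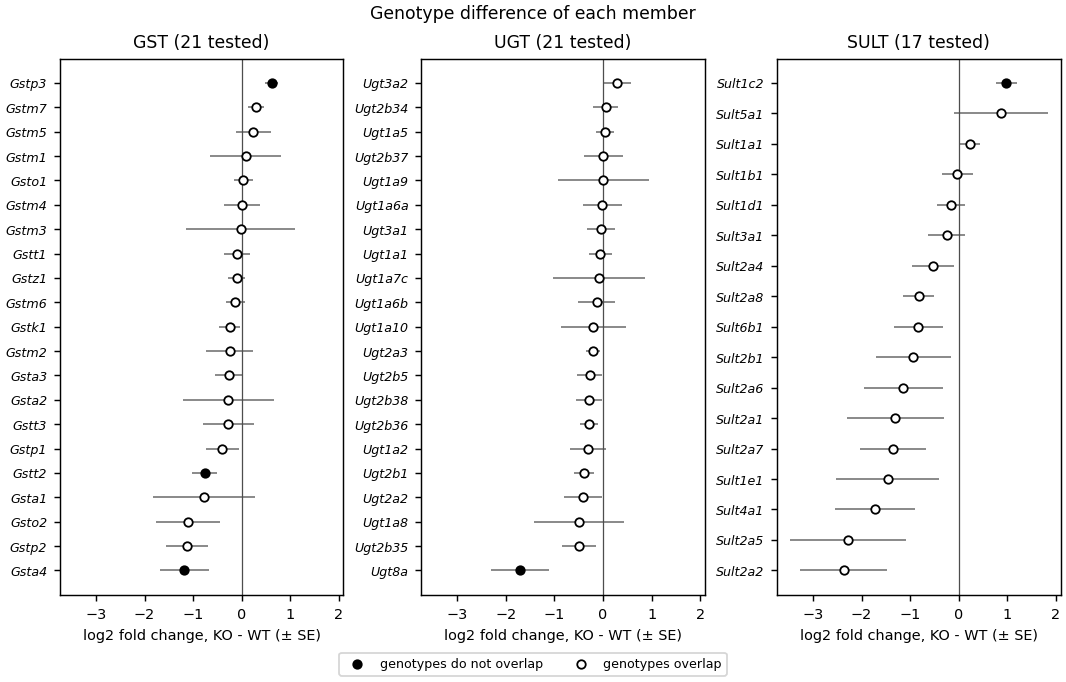
Log2 fold change (KO minus WT, x axis) with its standard error for each tested member of the 3 families, sorted by size (n = 3 libraries per genotype). Filled points are members whose genotypes do not overlap: Gstp3 and Sult1c2 lie to the right of 0, and Gstt2, Gsta4 and Ugt8a to the left.

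The median log2 difference was -0.25 for GST, -0.20 for UGT and -0.83 for SULT members, beside -0.015 for all genes tested. The SULT median was the farthest from 0. With only genes above the median level kept, it was -0.49, beside -0.19 for GST and -0.10 for UGT members. The median SD over the 6 libraries was 1.13 for SULT, 0.55 for GST and 0.46 for UGT members, and 0.40 for all genes tested. Single libraries decided the size of these medians. Without KO replicate 3 the GST median was 0.10, without KO replicate 1 the UGT median was 0.03, and without KO replicate 2 the SULT median was -0.30.

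Different libraries carried the lowest values of each family. KO replicate 3 was lowest of the 6 libraries in 12 of 21 GST members (57.1%, against 22.4% of all genes tested). KO replicate 1 was lowest in 9 of 21 UGT members (42.9%, against 17.1%), and KO replicate 2 in 11 of 17 SULT members (64.7%, against 15.7%). The same KO replicate 2 was highest in 5 GST (23.8%) and 6 UGT members (28.6%), against 14.2% of all genes tested. KO replicate 1 was also highest in 5 GST members, and WT replicate 1 in 7 UGT members. In 56 of 59 members the range within at least 1 genotype was wider than the difference between the genotype means, as it was in 96.1% of all genes.

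**Figure D2:**
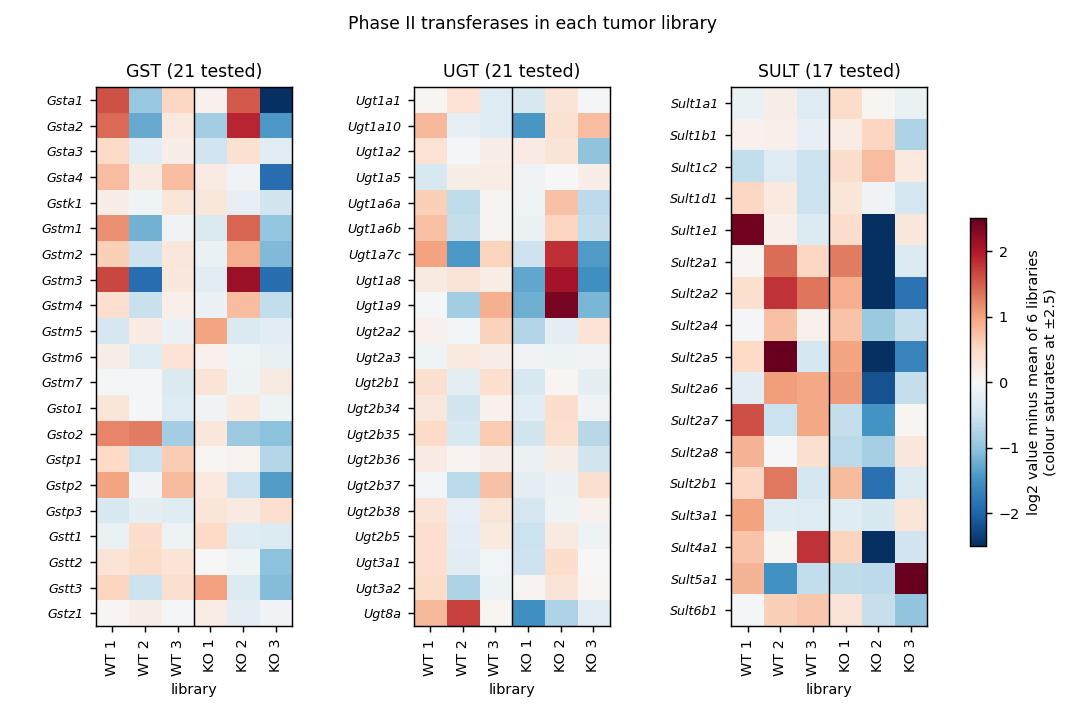
Each tested member (rows) in each library (columns), as its log2 value minus its mean over the 6 libraries, with the 3 families in separate panels and a line between the genotypes. KO replicate 2 is red for Gsta1, Gsta2, Gstm1, Gstm3, Ugt1a7c, Ugt1a8 and Ugt1a9 and blue for most Sult2a genes, and WT replicate 2 and KO replicate 3 are blue for the first 4 of these.

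The GST family is expressed at high levels in these tumors: 20 of 22 members lay above the median gene (5.70) in every library. Per kb of exon, Gstm1 was the highest member, with a mean log2 level of 14.1, followed by Gstp1 at 11.8 and Gstm3 at 11.5. Gstm1 alone made up 56.2%, 32.1% and 41.2% of the summed GST level per kb in WT and 40.2%, 62.1% and 41.4% in KO. Its share was thus lowest in WT replicate 2 and highest in KO replicate 2, and the genotypes overlapped.

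The mu-class genes Gstm1 to Gstm7 lie side by side on chromosome 3 (GRCm38 chr3:107895821-108044894, 149 kb), and their enzymes conjugate aromatic electrophiles and epoxides. Gstm3 had the largest SD of the GST family, 1.71 against 1.66 for Gsta1, whose range was wider at 4.365. The log2 values of Gstm3 were 12.80, 9.23 and 11.40 in WT and 10.86, 13.27 and 9.25 in KO. WT replicate 1 and KO replicate 2 were high, WT replicate 2 and KO replicate 3 low, and the range over the libraries was 4.04, against a genotype difference of -0.02 ± 1.12 (SE). Gstm1 had 15.44, 13.12 and 14.22 in WT and 13.93, 15.76 and 13.34 in KO. The same libraries were high and low, and the genotype difference was 0.09 ± 0.73 (SE).

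Gstm2 and Gstm4, the direct neighbours of Gstm1, had their highest value in KO replicate 2 and their lowest in KO replicate 3, with ranges of 2.004 and 1.39. Gstm5, Gstm6 and Gstm7, at the other end of the cluster, did not: Gstm5 was highest in KO replicate 1, Gstm6 in WT replicate 3 and Gstm7 in KO replicate 1, with ranges of 1.41, 0.67 and 0.71. Gstm7 was the mu-class gene with the smallest p. Its values were 9.36, 9.36 and 9.04 in WT and 9.75, 9.27 and 9.63 in KO, which overlapped, and the difference was 0.30 ± 0.17 (SE). Reads that fit several of the mu-class genes could have been split or lost in the authors' counting.

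**Figure D3:**
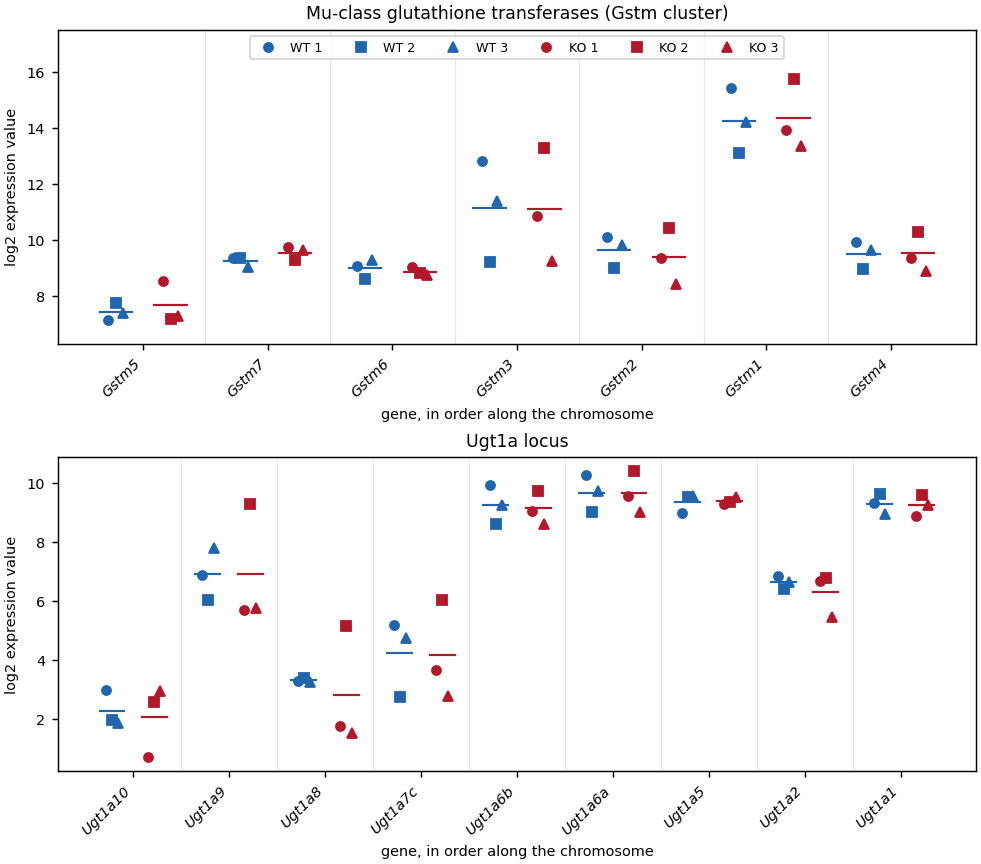
Log2 expression values of the 7 mu-class GST genes (top) and the 9 Ugt1a genes (bottom) in the order in which they lie along the chromosome, with blue symbols for WT, red for KO, a symbol shape for each replicate number and bars at the genotype means (n = 3). Gstm3 and Gstm1 spread over 4.04 and 2.64 log2 units with KO replicate 2 on top, whereas Gstm6, Gstm7, Ugt1a5 and Ugt1a1 spread over less than 1.

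The promoters of Gstm1 and Gstm3, the pair with the same order of libraries, are shown as the 250 bases before the RefSeq start (GRCm38.p6, minus strand, chr3:108017974-108018223 and chr3:107969175-107969424). Capitals mark GCGTG, the core bound by AHR, searched on both strands.
Gstm1: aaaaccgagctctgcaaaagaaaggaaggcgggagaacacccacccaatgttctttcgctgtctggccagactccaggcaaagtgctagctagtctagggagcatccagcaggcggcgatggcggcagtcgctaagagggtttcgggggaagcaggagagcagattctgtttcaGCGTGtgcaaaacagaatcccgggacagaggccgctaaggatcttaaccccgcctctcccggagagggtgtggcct
Gstm3: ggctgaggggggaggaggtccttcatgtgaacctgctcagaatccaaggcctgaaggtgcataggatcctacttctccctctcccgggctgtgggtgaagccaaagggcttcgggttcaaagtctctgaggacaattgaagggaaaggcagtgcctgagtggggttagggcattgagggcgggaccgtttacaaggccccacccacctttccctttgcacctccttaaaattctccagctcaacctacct
Over 300 bases, from 250 before to 50 after the start, GCGTG stood in 12 of the 56 members with a promoter sequence (21.4%) and in 35.2% of 27025 genes. The core of the antioxidant response element bound by NRF2, TGACNNNGC, stood in 3 of them, Gsta3, Gstm5 and Gstm7 (5.36%, against 14.0% of all genes). It was not found in the window of Gstm1 or Gstm3.

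The alpha-class genes Gsta1, Gsta2 and Gsta4 lie on chromosome 9, and Gsta4 is known for clearing the lipid peroxidation product 4-hydroxynonenal. Gsta1 had log2 values of 10.40, 7.86 and 9.32 in WT and 8.91, 10.33 and 6.04 in KO. WT replicate 1 and KO replicate 2 were again high, KO replicate 3 was lowest, and the genotypes overlapped, with a difference of -0.77 ± 1.05 (SE). Without KO replicate 3 the difference of Gsta1 was 0.43. Gsta2, whose coding sequence is 97.6% identical to that of Gsta1, also had its highest value in KO replicate 2 (9.20) and its lowest in KO replicate 3 (5.87), and reads of this pair may not have been told apart. Gsta3, the highest alpha-class gene, varied by 0.98 over the libraries.

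Gsta4 had 10.33, 9.80 and 10.34 in WT and 9.78, 9.48 and 7.67 in KO. All KO libraries lay below all WT libraries, but KO replicate 1 was only just under WT replicate 2 and KO replicate 3 stood far below the rest. The difference was -1.18 ± 0.50 (SE, adjusted limma p = 0.999; exact two-sided permutation test, p = 0.1, and 3 against 3 libraries allow none smaller). Without KO replicate 3 it was -0.53.

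The pi class consists of 3 genes within 24.2 kb on chromosome 19 (GRCm38 chr19:4035407-4059569). Pi-class enzymes detoxify reactive aldehydes and carcinogen metabolites, and the rat pi-class enzyme is a classical marker of chemically induced liver lesions in rats. Gstp3 was higher in KO without overlap, with log2 values of 7.88, 8.02 and 7.95 in WT and 8.55, 8.47 and 8.67 in KO. Its spread within each genotype was small, 7.95 ± 0.07 in WT and 8.57 ± 0.10 in KO (SD, n = 3), and all KO libraries stood above all WT libraries. The difference was 0.62 ± 0.14 (SE, adjusted limma p = 0.938; exact two-sided permutation test, p = 0.1). It lay between 0.56 and 0.66 when each library was left out in turn.

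Its neighbours had lower means in KO. Gstp2 had 9.99, 8.92 and 9.79 in WT against 9.24, 8.47 and 7.60 in KO. Only KO replicate 1 reached into the WT range of Gstp2, and the difference was -1.13 ± 0.43 (SE), or -0.71 without KO replicate 3. Gstp1, the most abundant of them, had 12.83, 11.81 and 12.97 in WT and 12.39, 12.42 and 11.62 in KO, with overlap and a difference of -0.39 ± 0.35 (SE). The coding sequences of Gstp1 and Gstp2 are 98.1% identical, so the split of reads between this pair is uncertain. Whether Gstp3 differs from Gstp2 in its response to genotype was not tested.

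The 250 bases before the RefSeq starts of the 3 pi-class genes (GRCm38.p6, minus strand) are printed because these genes differed in direction. Gstp1 covers chr19:4037913-4038162, Gstp2 chr19:4042222-4042471 and Gstp3 chr19:4059448-4059697. Capitals mark GCGTG and TGANTCAGC, an antioxidant element that includes an AP-1 site, a motif chosen after these sequences had been seen.
Gstp1: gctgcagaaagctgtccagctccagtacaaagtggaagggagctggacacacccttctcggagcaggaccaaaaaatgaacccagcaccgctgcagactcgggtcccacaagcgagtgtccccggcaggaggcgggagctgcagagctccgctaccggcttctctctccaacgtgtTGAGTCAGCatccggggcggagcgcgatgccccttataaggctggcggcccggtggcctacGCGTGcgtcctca
Gstp2: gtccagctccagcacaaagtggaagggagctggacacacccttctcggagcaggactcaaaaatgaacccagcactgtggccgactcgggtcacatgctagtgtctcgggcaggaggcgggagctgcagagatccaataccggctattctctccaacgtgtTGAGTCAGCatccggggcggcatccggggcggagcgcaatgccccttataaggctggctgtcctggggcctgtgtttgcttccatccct
Gstp3: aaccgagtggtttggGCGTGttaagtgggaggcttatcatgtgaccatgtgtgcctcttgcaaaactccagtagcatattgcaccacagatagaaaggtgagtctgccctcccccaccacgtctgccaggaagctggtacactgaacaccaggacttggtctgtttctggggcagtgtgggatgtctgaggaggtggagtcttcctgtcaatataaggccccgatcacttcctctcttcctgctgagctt
The Gstp1 and Gstp2 stretches are 78.5% identical over a global alignment, and the Gstp3 stretch is 50.9% and 51.0% identical to them. TGANTCAGC stood in the window of Gstp1 and Gstp2, the only members that held it (3.57% of 56), and in 1.37% of all genes. These letters were not found in the window of Gstp3.

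Among the theta-class genes on chromosome 10, whose enzymes act on small halogenated and sulfate ester substrates, Gstt2 was lower in KO without overlap. It had 9.38, 9.50 and 9.38 in WT and 9.03, 8.94 and 8.01 in KO, with KO replicate 3 lowest. The difference was -0.76 ± 0.26 (SE, adjusted limma p = 0.999; exact two-sided permutation test, p = 0.1), and -0.44 without KO replicate 3. Gstt1, the highest theta-class gene, and Gstt3 overlapped between the genotypes, and Gstt4 was at -2.13 to -2.08 in all libraries.

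Of the remaining GST genes, Gsto2 of the omega class was weakly expressed, with 2.25, 2.31 and 0.16 in WT and 1.31, 0.11 and -0.01 in KO. WT replicate 3 lay among the KO libraries. Gsto1, the abundant omega-class gene, ranged over 0.64, Gstk1, a mitochondrial and peroxisomal member, over 0.76, and Gstz1, which also acts in tyrosine breakdown as maleylacetoacetate isomerase, over 0.44. These 3 genes overlapped between the genotypes.

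**Figure D4:**
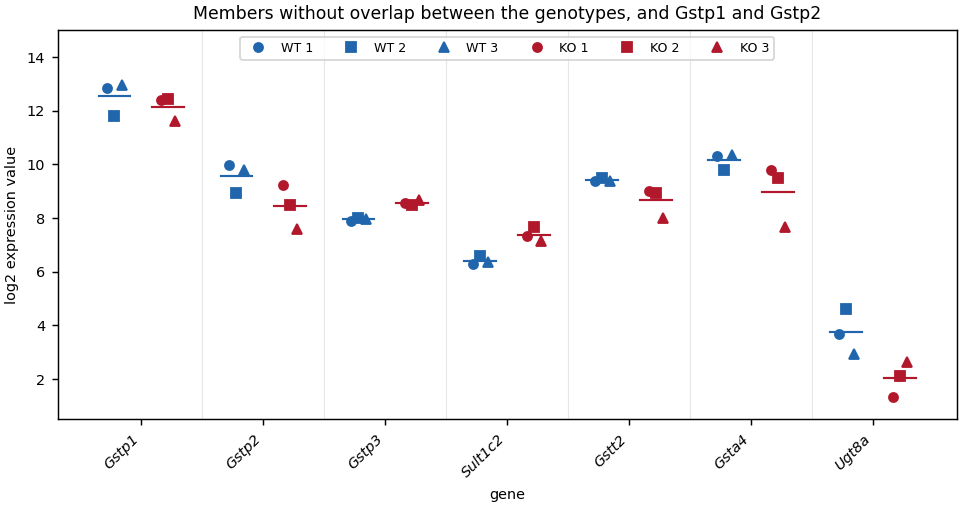
Log2 expression values of the 5 members whose genotypes do not overlap, with Gstp1 and Gstp2 beside Gstp3, in blue for WT and red for KO, with bars at the genotype means (n = 3). Gstp3 and Sult1c2 are higher in all 3 KO libraries, and the red triangle of KO replicate 3 stands lowest for Gstt2 and Gsta4.

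In the UGT family, 13 of 21 members lay above the median gene in every library. The Ugt2b genes dominated: Ugt2b5 made up 21.7% to 28.0% of the summed UGT level per kb, Ugt2b36 20.9% to 28.4% and Ugt2b34 8.37% to 11.9%. All UGT members except Ugt8a overlapped between the genotypes.

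The 9 Ugt1a genes share a locus on chromosome 1 (GRCm38 chr1:88055388-88220002, 165 kb), in which each has its own first exon and all share the remaining exons, so that 50.3% to 60.6% of the exon bases of each gene are shared on the same strand. Reads in the shared exons cannot be assigned to 1 of these genes, and how the authors counted them is not given in the sources used here. Ugt1a1, which conjugates bilirubin, was steady at 8.88 to 9.63 over the 6 libraries, and Ugt1a5 at 8.97 to 9.55. Ugt1a9, which acts on phenols, had 6.87, 6.05 and 7.81 in WT and 5.69, 9.28 and 5.77 in KO. KO replicate 2 was far above the rest and the other KO libraries were lowest, which left a difference of 0.01 ± 0.93 (SE).

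Ugt1a7c had 5.20, 2.76 and 4.75 in WT and 3.67, 6.02 and 2.78 in KO, with KO replicate 2 highest and WT replicate 2 and KO replicate 3 lowest, the order seen in Gstm3. Its difference was -0.08 ± 0.94 (SE). Ugt1a6a and Ugt1a6b, which glucuronidate planar phenols and are 98.4% identical in coding sequence, were highest in KO replicate 2 and WT replicate 1 respectively, and ranged over 1.40 and 1.33. Ugt1a8 was within 0.14 in WT, at 3.25 to 3.39, but had 1.77, 5.15 and 1.53 in KO. Within this locus, then, the genes that varied most lay among Ugt1a9, Ugt1a8 and Ugt1a7c, which are neighbours, while Ugt1a5 and Ugt1a1 varied by 0.58 and 0.75.

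The Ugt2 genes on chromosome 5 conjugate steroids, bile acids and drugs. Over the 6 libraries the SD of 6 of these 9 genes was below the median of all genes tested (0.40), and Ugt2a2, Ugt2b37 and Ugt2b35 were above it at 0.46, 0.49 and 0.57. Ugt2b36 had 12.57, 12.42 and 12.52 in WT and 12.21, 12.505 and 11.90 in KO, with KO replicate 2 inside the WT range, and the difference was -0.30 ± 0.19 (SE). Ugt2b5 had 12.70, 12.04 and 12.52 in WT and 11.75, 12.51 and 12.16 in KO, and Ugt2b34 12.48, 11.73 and 12.29 in WT and 11.93, 12.63 and 12.10 in KO. Both overlapped, with differences of -0.28 ± 0.25 and 0.05 ± 0.26 (SE). Ugt2b5 is 97.0% identical to Ugt2b38 in coding sequence, and their counts may be mixed.

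Ugt2b1 had 11.53, 10.91 and 11.56 in WT and 10.73, 11.17 and 10.89 in KO, and only WT replicate 2 lay among the KO libraries (difference -0.39 ± 0.21, SE). Ugt2b35 had 11.05, 10.19 and 11.21 in WT and 10.11, 10.97 and 9.87 in KO, with a difference of -0.50 ± 0.35 (SE). Ugt2a3 was nearly constant in KO, at 10.86, 10.83 and 10.87, and had 10.85, 11.20 and 11.12 in WT, with a difference of -0.20 ± 0.14 (SE). For Ugt2b1 and Ugt2a3 the libraries thus overlapped through a single WT tumor. Ugt2a2 shares 94.5% of its exon bases with Ugt2a1, which is not analysed here, and was low at 0.30 to 1.61.

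Ugt3a1 and Ugt3a2, which use sugars other than glucuronic acid, overlapped between the genotypes, and Ugt3a2 had the highest positive difference of the family, 0.29 ± 0.29 (SE). Ugt8a, the ceramide galactosyltransferase that makes galactolipids of myelin, was the only UGT member without overlap. It was weakly expressed, with 3.69, 4.60 and 2.94 in WT and 1.35, 2.12 and 2.62 in KO, and KO replicate 3 came close to WT replicate 3. The difference was -1.71 ± 0.59 (SE, adjusted limma p = 0.999; exact two-sided permutation test, p = 0.1), and leaving out each library gave -2.11 to -1.28.

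In the SULT family, 5 of 21 members lay above the median gene in every library, and Sult1a1, which sulfonates phenols, made up 63.4% to 80.1% of the summed SULT level per kb. Sult1a1 had 11.96, 12.26 and 11.79 in WT and 12.57, 12.16 and 11.95 in KO, with overlap and a difference of 0.22 ± 0.21 (SE). Sult1d1, which acts on catecholamines and other phenols, had 10.47, 10.19 and 9.42 in WT and 10.25, 9.86 and 9.50 in KO, also with overlap, and a difference of -0.16 ± 0.29 (SE).

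Sult1c2, another sulfotransferase of the phenol type, was higher in KO without overlap. It had 6.29, 6.58 and 6.35 in WT against 7.34, 7.66 and 7.15 in KO. Every KO tumor stood above every WT tumor. Means were 6.41 ± 0.15 in WT and 7.38 ± 0.26 in KO (SD, n = 3). The difference was 0.98 ± 0.22 (SE, adjusted limma p = 0.938; exact two-sided permutation test, p = 0.1), its unadjusted p was the lowest of all members, and the value stayed between 0.84 and 1.09 when each library was left out. Sult1e1, the estrogen sulfotransferase, ranged over 5.31, from 0.12 in KO replicate 2 to 5.43 in WT replicate 1.

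The Sult2a genes form a cluster on chromosome 7 (GRCm38 chr7:13623967-14494230, 870 kb) and sulfonate steroids and bile acids. In mouse liver Sult2a1 and Sult2a2 are known as genes of higher expression in females. Of the 9 Sult2 genes, which include Sult2b1 elsewhere on the chromosome, the 8 tested all had a lower mean in KO (52.3% of all genes tested did), with a median difference of -1.22, and all 8 overlapped between the genotypes. Sult2a2 had 4.18, 5.59 and 5.10 in WT and 4.67, 1.17 and 1.93 in KO. KO replicates 2 and 3 were low and KO replicate 1 lay inside the WT range, with a difference of -2.37 ± 0.90 (SE), which was -3.41 without KO replicate 1 and -1.66 without KO replicate 2.

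Sult2a5 had 2.52, 5.37 and 1.57 in WT and 2.999, -0.73 and 0.33 in KO, with a difference of -2.29 ± 1.19 (SE), and -1.18 without WT replicate 2, its highest library. Sult2a7 had 5.03, 2.88 and 4.38 in WT and 2.83, 1.92 and 3.47 in KO (difference -1.36 ± 0.68, SE). Sult2a8, a bile acid sulfotransferase, was by far the highest Sult2a gene, with 11.17, 10.30 and 10.71 in WT and 9.64, 9.48 and 10.58 in KO. Only KO replicate 3 reached the WT range of Sult2a8, and the difference was -0.83 ± 0.32 (SE). The coding sequence of Sult2a5 is 94.9% identical to that of Sult2a1, so the split of reads between this pair is uncertain.

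Sult4a1, best known from brain, had 5.50, 4.84 and 6.59 in WT and 5.33, 2.12 and 4.31 in KO, with KO replicate 1 inside the WT range and a difference of -1.72 ± 0.83 (SE), and -0.82 without KO replicate 2. Sult2b1, a cholesterol sulfotransferase, and Sult6b1 overlapped between the genotypes. Sult5a1 was the remaining SULT member with a higher mean in KO, 0.87 ± 0.96 (SE), and rested on KO replicate 3 at 7.50 against 3.39 to 5.75 elsewhere. Sult2a4, Sult3a1, Sult3a2, Sult1c1, Sult2a3 and Sult6b2 were at or near the floor of the table, at 0.41 or lower in every library.

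Female-biased and male-biased liver genes were set beside the SULT members. The summed level of the 8 female-biased genes was 15.4 to 15.8 in WT and 12.8 to 14.7 in KO, without overlap, and was carried mostly by Cyp2a4, a steroid hydroxylase, with 15.35, 15.36 and 15.67 in WT and 14.37, 14.35 and 12.62 in KO. Within that list 2 genes had an unadjusted limma p under 0.05, both lower in KO (2.56% of all genes tested were). The list held 1 gene that was lower without overlap (4.33% of all genes). The mean was lower in KO for 6 of the 8 female-biased genes (52.3% of all genes tested were) and higher for 2, Cyp3a41a and Cyp3a44. The 8 male-biased genes had a summed level of 15.1 to 15.6 in WT and 15.1 to 15.7 in KO, carried mostly by Mup20 at 14.7 to 15.2. The mean was higher in KO for 5 of the 8 male-biased genes and lower for 3, with a median difference of 0.19. Of the 3, Cyp2d9 was lower in KO without overlap (13.01, 12.54 and 12.20 in WT, 11.41, 12.17 and 12.14 in KO). Whether sex-biased expression has a part in the SULT values was not tested.

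A promoter motif was unevenly spread over the families. TTAATNATT, a motif chosen after the sequences had been seen, stood on either strand in 8 of 19 UGT, 5 of 17 SULT and 0 of 20 GST windows of 300 bases, or 23.2% of the 56 members and 1.72% of 27025 genes. Stretches around it are printed for 8 of the 13 members, in the direction of the gene (GRCm38.p6), with the matched letters in capitals. They were chosen to include near-alike pairs, and they come from chr1:88211898-88211938 and chr1:88070668-88070708 (plus strand), chr5:87140537-87140577 and chr5:87424408-87424448 (minus), chr5:87569060-87569100 (minus), chr7:13989670-13989710 and chr7:14254916-14254956 (minus) and chr7:13623924-13623964 (plus).
Ugt1a1: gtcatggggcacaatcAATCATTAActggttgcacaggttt
Ugt1a9: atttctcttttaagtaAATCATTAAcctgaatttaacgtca
Ugt2b5: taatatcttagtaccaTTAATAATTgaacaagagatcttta
Ugt2b38: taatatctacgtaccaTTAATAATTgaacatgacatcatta
Sult1d1: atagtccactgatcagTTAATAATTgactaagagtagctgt
Sult2a4: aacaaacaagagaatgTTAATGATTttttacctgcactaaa
Sult2a5: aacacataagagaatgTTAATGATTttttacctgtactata
Sult2a6: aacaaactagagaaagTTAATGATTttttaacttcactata
Ugt2b5 and Ugt2b38 carry the same matched letters in near-alike surroundings, as do the 3 Sult2a genes, whereas Ugt1a1 and Ugt1a9 lie in 1 cluster with unlike surroundings. Sult1d1 carries the letters of the Ugt2b pair, and Ugt2b35, of the same cluster and not printed, holds the motif on the other strand, where Ugt2b5 has a further match too. Over the libraries Ugt1a1, which holds the motif, ranged over 0.75, and Sult2a5, which holds it too, over 6.10. Such a match describes the sequence and does not show that a factor binds there.

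The supply and breakdown of the cofactors was followed in lists of related genes. Over all genes tested, 4.34% had an unadjusted limma p under 0.05, and 3.95% were higher and 4.33% lower in KO without overlap. Of 13 genes of glutathione supply and breakdown, 1 had an unadjusted limma p under 0.05 and did not overlap: Ggct, which degrades gamma-glutamyl peptides, was higher in KO, with 7.73, 7.38 and 7.25 in WT and 8.05, 7.76 and 8.64 in KO. Of 7 membrane-bound and prostaglandin glutathione transferases, Mgst2, a leukotriene C4 forming enzyme, was lower without overlap (3.81, 3.54 and 4.14 in WT, 2.37, 2.08 and 2.76 in KO, difference -1.42 ± 0.44, SE). Their abundant relative Mgst1 overlapped. Of the 4 genes for UDP-glucuronic acid and its removal, Gusb, the lysosomal beta-glucuronidase, was lower without overlap by a small amount (9.52, 9.55 and 9.46 in WT, 9.38, 9.27 and 9.18 in KO).

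All 7 genes found for PAPS and sulfate handling overlapped between the genotypes, and Papss2, which makes PAPS in liver, ranged from 11.02 to 11.49. Among the other conjugating enzymes reported here, As3mt, which methylates arsenic, and Glyat, which conjugates acyl-CoA with glycine, were higher in KO without overlap, by 0.35 and 0.26. All 9 exporters of conjugates (Abcb, Abcc and Abcg genes) overlapped between the genotypes. The adjusted limma p of the named genes of these lists was above 0.05 in each case, as for all genes tested.

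Among 12 regulators of phase II genes, Ppara, the fatty acid receptor, was lower in KO without overlap (12.06, 12.24 and 11.90 in WT, 11.83, 11.84 and 11.31 in KO), as were 4.33% of all genes tested. Bach1 alone had an unadjusted limma p under 0.05 and was lower in KO (2.56% of all genes tested were). It had 11.61, 11.98 and 11.61 in WT and 11.75, 10.77 and 10.30 in KO. KO replicate 1 of Bach1 lay inside the WT range, and the difference was -0.79 ± 0.34 (SE). Nfe2l2, which encodes NRF2, had 10.93, 10.81 and 10.75 in WT and 10.60, 10.83 and 10.46 in KO and overlapped. Nr1i2 (PXR), Nr1i3 (CAR) and Ahr were at 9.59 to 10.2, 8.61 to 9.24 and 9.54 to 10.6 and also overlapped. The transcript levels of Nfe2l2, Nr1i2, Nr1i3 and Ahr varied far less over the tumors than those of Gstm3, Gsta1 or Ugt1a7c. Bach1 had an SD of 0.65 over the 6 libraries.

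Genes that report NRF2 activity were followed in a list of 9. Nqo1, an NRF2-induced quinone reductase, had 9.65, 7.44 and 8.63 in WT and 8.24, 9.24 and 5.76 in KO. Srxn1 had 11.80, 9.98 and 11.54 in WT and 10.92, 11.69 and 9.70 in KO. In 4 of the 9 (Nqo1, Srxn1, Slc7a11 and Gclm) the 2 highest libraries were WT replicate 1 and KO replicate 2 and the 2 lowest WT replicate 2 and KO replicate 3, as in Gstm3. Txnrd1 shared only the low libraries and Gclc only the high ones, and Osgin1, Hmox1 and G6pdx shared neither. Osgin1 was instead lowest in KO replicate 2 (10.55) and WT replicate 1 (10.85). G6pdx was lowest in KO replicate 2 (7.91), and Hmox1 was highest in KO replicate 3 (8.88). The pattern of high and low libraries was read from Gstm3 in the same data, and how many of all genes show it was not counted. In Gclm the low end rested on WT replicate 2 at 11.31, just under WT replicate 3 at 11.33. All 9 overlapped between the genotypes, as did the 7 reporter genes of CAR, PXR and AHR, of which Cyp2b10 had 5.84, 4.06 and 4.64 in WT and 3.07, 6.60 and 3.23 in KO. The part of any of these regulators in the transferase values was not tested.

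**Figure D5:**
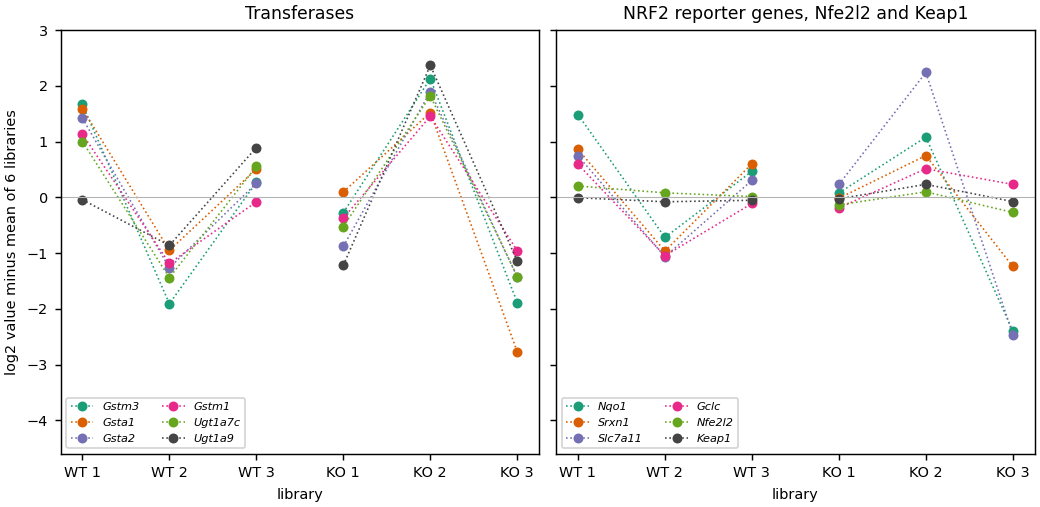
Log2 value minus the mean of the 6 libraries for 6 transferases (left) and for 4 NRF2 reporter genes with Nfe2l2 and Keap1 (right), by library, where dotted lines only join the points of a gene within a genotype and replicates have no order. Gstm3 and Nqo1 are low in WT replicate 2 and KO replicate 3 and high in KO replicate 2 and WT replicate 1, while Nfe2l2 and Keap1 stay near 0. The reporter genes Osgin1, Hmox1 and G6pdx, which did not share these libraries, are not drawn.

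Beta-catenin, which controls several transferases of pericentral hepatocytes, was followed through 7 reporter genes. Their summed level was 14.09 to 14.9 in WT and 13.1 to 14.14 in KO, which overlapped. In 3 genes, Glul, Cyp2e1 and Slc1a2, the unadjusted limma p was under 0.05, all lower in KO (2.56% of all genes tested were). Axin2 and Lgr5 differed by -0.24 ± 0.43 and -0.46 ± 0.32 (SE), and Tbx3 was higher in KO, by 0.16 ± 0.31 (SE). All but Slc1a2 overlapped between the genotypes. Slc1a2, a glutamate transporter, was lower without overlap (8.89, 8.84 and 9.56 in WT, 7.68, 5.56 and 7.49 in KO), as were 4.33% of all genes. Markers of other cell types that tumors can hold were read beside the transferases. The 6 bile duct genes had a summed level of 11.6 to 12.6 in WT and 11.7 to 12.6 in KO. That sum was carried by Spp1, at 11.3 to 12.6, and says little about the others. The mean was lower in KO for 4 of the 6 and higher for 2, Sox9 and Spp1. Krt19 and Epcam were lower in KO without overlap (4.33% of all genes tested were). Krt19 had 6.11, 4.75 and 6.93 in WT and 2.86, 4.38 and 2.502 in KO. Of 4 neutrophil genes, 2 had an unadjusted limma p under 0.05, both lower in KO, as had 3 of 5 red blood cell genes (2.56% of all genes tested). All 4 neutrophil genes overlapped between the genotypes, and Csf3r among them was higher in KO, by 0.15. Of the 5 red blood cell genes, 2 were lower without overlap (4.33% of all genes tested were), and Alas2 was higher in KO, by 0.01. The summed hepatocyte level, carried mostly by Alb, was 20.7 to 21.3 in WT and 20.9 to 21.4 in KO. The part of these reporter and marker genes in the transferase values was not tested.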

How the data were processed

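The authors deposited a table of log2 expression values per gene symbol for 3 WT and 3 Top1mt-KO tumors. The submitters' processing notes name bcl2fastq 2.17, Trimmomatic 0.36, STAR 2.5.1, Subread, DESeq2 and GRCm38, whereas the study's methods name BWA and another genome build. The log2 transform is not named and behaves like a regularized log. Counts and depth are unknown, so no count model was used. Of the table's columns, 3 unnamed ones with leftover cells were not used. The comparison of genotypes used R 4.3.3 and limma 3.58.1 (lmFit, eBayes with trend, Benjamini-Hochberg adjustment over 22677 genes whose mean lay above the lowest 25%), and single genes with exact two-sided permutation tests over 20 regroupings. Nothing in the labels says that libraries are from separate animals, so p-values measure the spread between these samples. Levels per kb divide 2 to the power of the value by exon length. Positions came from GENCODE M21 (GRCm38) and promoters from RefSeq (GRCm38.p6, 56 of 64 members matched), with Biopython 1.88 for identities. Full values are given, per family, for the 6 tested members with the smallest p, the 3 with the highest level and the 2 with the largest SD, and for list genes without overlap, of which some are not reported here. Members and lists were chosen with earlier results of these data known. The procedure was tested on simulated data.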

Additional observations from a re-analysis of the deposited data

How the results depend on the processing

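Results were recomputed, where a setting could change them, without the mean-variance trend, after quantile normalization, with all genes kept or only those above the median, with a replicate block, and leaving out each of the 6 libraries. Overlap counts do not depend on the trend or the block, nor family medians on the trend, and Gsto2, Sult2a5 and Ugt8a fall below the filter at the median. An addition chosen after seeing the data left out WT replicate 2 and KO replicate 1 together. No member passed the adjusted threshold under any of them. Over all genes, 4 passed without the filter (1700049E15Rik, Gm14130, Gm25081 and Gm26962, all weakly expressed) and 0 to 1 with a library left out (Prom1, without KO replicate 1), none of them a member. Members at an unadjusted p under 0.05 numbered 8 in the main comparison and 5 without trend (4.62% of all genes), 15 without WT replicate 2 and KO replicate 1 together (25.4%, against 5.95% of all genes), and 5 (without KO replicate 3, 3.79% of all genes) to 12 (without KO replicate 1, 5.98%) with a library left out. Members lower in KO without overlap numbered 3, and 4 to 15 with a library left out. Leaving out WT replicates 1, 2 and 3 in turn gave 6 (10.2%, against 8.86% of all genes), 14 (23.7%, against 9.56%) and 4 (6.78%, against 9.41%). Leaving out KO replicates 1, 2 and 3 in turn gave 15 (25.4%, against 11.8%), 9 (15.3%, against 8.74%) and 6 (10.2%, against 8.54%). Members higher in KO without overlap numbered 2, and 2 to 3 with a library left out (3.39% to 5.08%, against 7.32% to 9.75% of all genes). Same-numbered libraries of the 2 genotypes deviated with correlations of -0.12, -0.076 and 0.052, which gives no sign of pairing. With the replicate block 10 members (4.02% of all genes) had an unadjusted p under 0.05 and 0 were called. A block cannot move the differences in this balanced design. Of 28 named genes, 7 changed sign under some alternative. Of 18 list genes without overlap 0 did, but their lack of overlap fixes the sign when a library is left out. Only quantile normalization could have changed it. Leaving out a library gave -1.72 to 0.43 for Gsta1, -0.62 to 0.67 for Gstm1, -1.09 to 0.92 for Gstm3, -0.46 to 0.066 for Sult1d1, -1.01 to 0.61 for Ugt1a7c, -1.18 to 0.62 for Ugt1a9 and -0.17 to 0.21 for Ugt2b34, and quantile normalization gave 0.021 for Ugt1a7c and -0.0042 for Ugt2b34. The cause was not tested. The depth of the libraries is unknown, and 3 libraries a genotype limit what differences can be seen.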

Other observations

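Other cell type markers were read in the same tumors. Endothelial genes had slightly higher means in KO in 5 of 5 cases, with Cdh5, the adherens junction cadherin of endothelium, at 9.96, 9.47 and 9.78 in WT and 10.09, 10.07 and 10.26 in KO, and Pecam1 at 9.62, 9.50 and 9.43 in WT and 9.68, 9.66 and 9.68 in KO. Both were higher without overlap (3.95% of all genes tested were), as was the thyroid hormone carrier Ttr among the hepatocyte genes. Of the 7 hepatocyte genes, 3 had a higher and 4 a lower mean in KO. Summed macrophage genes were at 11.7 to 12.7 in WT and 11.7 to 12.4 in KO, and stellate cell and fibroblast genes at 12.4 to 14.0 in WT and 11.6 to 13.7 in KO, with KO replicate 1 lowest. T and NK cell genes were weak throughout, with a higher mean in KO for 2 of the 5 and a lower mean for 3. Among these 3, only Cd3e was lower without overlap (3.27, 2.94 and 2.18 in WT, 1.14, 2.01 and 2.15 in KO), as were 4.33% of all genes tested. B cell genes had a summed level of 8.23 to 9.004 in WT and 6.88 to 8.74 in KO. Of the pancreas and gut genes, Cpa1 and Ctrb1 were at the floor of the table in all libraries, and Fabp2 was at 9.43 to 11.1.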
